A study of Mus musculus with 9 samples.

Results

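Interferon-stimulated genes are the genes that cells switch on when interferon binds its receptors. The set followed here holds 35 of them, the type I and type II interferon-stimulated genes and the factors that drive them. The members were found by symbol in a table of 56805 genes, and all 35 were present. They were measured by RNA sequencing in the tibialis anterior (TA) muscle of the left leg, a mostly fast muscle, taken from male mice aged 13 months. Per the labels, there were 3 mice of genotype Svil-KO, 3 of genotype Svil-Mut and 3 of genotype WT, with 1 library per mouse. Svil encodes supervillin, which links actin and myosin to the cell membrane, and the series asks how altered supervillin bears on insulin action, glucose metabolism and muscle function. The labels name no agent, and state neither the strain background nor the part of Svil that is altered in either genotype. Values are normalized counts, that is, read counts divided by a library size factor, and libraries are given in the order replicates 1, 3 and 4 of Svil-KO, 1, 2 and 4 of Svil-Mut and 1, 3 and 4 of WT.

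Type I interferons signal through the receptor chains Ifnar1 and Ifnar2 and the kinases Jak1 and Tyk2 to the factor ISGF3, which includes Stat2 and Irf9 and binds interferon-stimulated response elements. Type II interferon signals through Ifngr1 and Ifngr2 and acts on gamma-activated sites. In muscle this programme is best known from inflammatory myopathies, above all dermatomyositis, in which fibres near the edge of the fascicle express many of the genes below.

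Facts of the whole series bear on how these genes can be read. Depth was 36234428 to 48762188 reads per library, with 19282 to 19988 genes detected. Svil itself averaged 6934 ± 407 normalized counts in Svil-KO, 4379 ± 381 in Svil-Mut and 8822 ± 497 in WT (SD, n = 3). Most Svil reads thus remained in the libraries labelled Svil-KO, which had more of them than those labelled Svil-Mut, and a total per gene does not show which part of the transcript is left or check the label. Directions below are those of the libraries so labelled. Fibre markers matched the labelled tissue, with Acta1, skeletal muscle actin, and Myh4, the fast type IIb myosin heavy chain, at up to 2543895 and 2610190 normalized counts. Svil-Mut replicates 2 and 4 stood apart from the other libraries in a principal component analysis, at 79.6 on the first component (17.8% of the variance) and 79.5 on the second (14.7%). On the third (13%), WT replicates 1 and 3 lay furthest apart, at 65.3 and -49.3. In Svil-Mut the immediate early genes, a list that includes Fos, had a median log2 fold change of 2.05 against WT. Whole muscle holds many cell types, and fewer cells of a type cannot be told apart from less RNA per cell.

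Motifs named for interferon responses were more common in the promoters of the set than over all genes, as a description without a test. RefSeq promoter windows (GRCm38.p6, 250 bases before to 50 bases after a start) were matched by symbol for 25 of the 35 members. Both strands were searched for the core of the interferon-stimulated response element, a pair of GAAA blocks with any 2 bases between them, and for the gamma-activated site, TTCNNNGAA. The response element core was found for 15 of the 25 members (60%), against 3.99% of the 27025 genes with a window. A gamma-activated site was found for 8 of the 25 (32%), against 9.55% of all genes, and both motifs for 5 (Bst2, Eif2ak2, Gbp7, Igtp and Oas1a; 20%, against 0.54%). A match describes these letters only and is no evidence of binding. The 5 promoters printed here are those with a motif whose genes had the smallest p in any comparison, among the members eligible for printing. Each runs 5′ to 3′ on the strand of its gene, and capitals mark the motifs.
Irf1: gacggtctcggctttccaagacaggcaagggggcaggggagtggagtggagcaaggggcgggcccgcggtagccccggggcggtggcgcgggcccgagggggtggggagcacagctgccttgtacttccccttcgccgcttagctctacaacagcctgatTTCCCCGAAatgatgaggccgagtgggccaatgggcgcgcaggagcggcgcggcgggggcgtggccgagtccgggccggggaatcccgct
Ifih1: ggagaagagaatcGAAACAGAAAccgatct
Ifit3: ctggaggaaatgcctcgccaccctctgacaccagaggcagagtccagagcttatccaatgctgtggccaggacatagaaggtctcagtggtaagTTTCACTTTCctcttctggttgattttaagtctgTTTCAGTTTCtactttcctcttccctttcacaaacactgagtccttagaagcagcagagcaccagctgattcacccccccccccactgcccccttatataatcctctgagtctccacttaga
Oas1a: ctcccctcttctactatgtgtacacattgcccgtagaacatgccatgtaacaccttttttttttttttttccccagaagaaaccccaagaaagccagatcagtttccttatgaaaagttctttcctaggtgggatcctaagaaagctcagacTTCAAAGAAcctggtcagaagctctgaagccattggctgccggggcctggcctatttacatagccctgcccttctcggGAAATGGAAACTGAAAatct
Stat2: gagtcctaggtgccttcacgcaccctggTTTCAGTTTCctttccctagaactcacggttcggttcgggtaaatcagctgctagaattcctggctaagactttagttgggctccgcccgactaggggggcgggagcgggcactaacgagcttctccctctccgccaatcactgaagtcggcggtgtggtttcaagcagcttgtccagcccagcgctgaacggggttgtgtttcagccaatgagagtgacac
The Irf1 stretch (chr11:53769764-53770013, plus strand) holds a gamma-activated site that begins 90 bases before the start. For Ifih1, 30 bases are shown (chr2:62646207-62646236, minus strand), because its response element core begins 32 bases after the start. Ifit3 (chr19:34583279-34583528, plus strand) has a pair of cores, 156 and 122 bases before the start. In Oas1a (chr5:120907526-120907775, minus strand) 2 cores overlap close to the start, at 20 and 14 bases before it, and a gamma-activated site lies 98 bases before it. The Stat2 core (chr10:128270248-128270497, plus strand) begins 222 bases before the RefSeq start. GENCODE M21 places the start of Stat2 further downstream, at 128270559, so this distance depends on the annotation.

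Most of the set was expressed at low to moderate levels in TA muscle of all genotypes. Over the 9 libraries, 2 members averaged over 1000 normalized counts (Ifi27 and Irgm1), 25 averaged over 100, and 6 averaged under 30 (Mx1, Mx2, Oas1a, Oas2, Dhx58 and Ifi44). Together the 35 genes took 189 ± 6.49 CPM (reads scaled to a common library total) in Svil-KO, 192 ± 27.4 in Svil-Mut and 195 ± 15.9 in WT (SD, n = 3). Per kilobase of merged exons, Ifi27 had the highest level at 720 normalized counts per kilobase, followed by Bst2, the membrane tether of budding viruses, at 328 normalized counts per kilobase. Next on this scale came the immunity-related GTPase Igtp (260), Ifi35 (221) and the GTPase Irgm1 (176). The RNA sensors lay low on the same per-kilobase scale, at 15.4 for Ifih1 and 7.28 for Dhx58. Mx1, a dynamin-like antiviral GTPase, had 0 reads in all 9 libraries, which allows up to 3 reads per library (0.0615 to 0.0828 CPM, counting error only). Its neighbour Mx2, which the annotation calls a polymorphic pseudogene, had 0 to 15 reads per library.

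**Figure D1:**
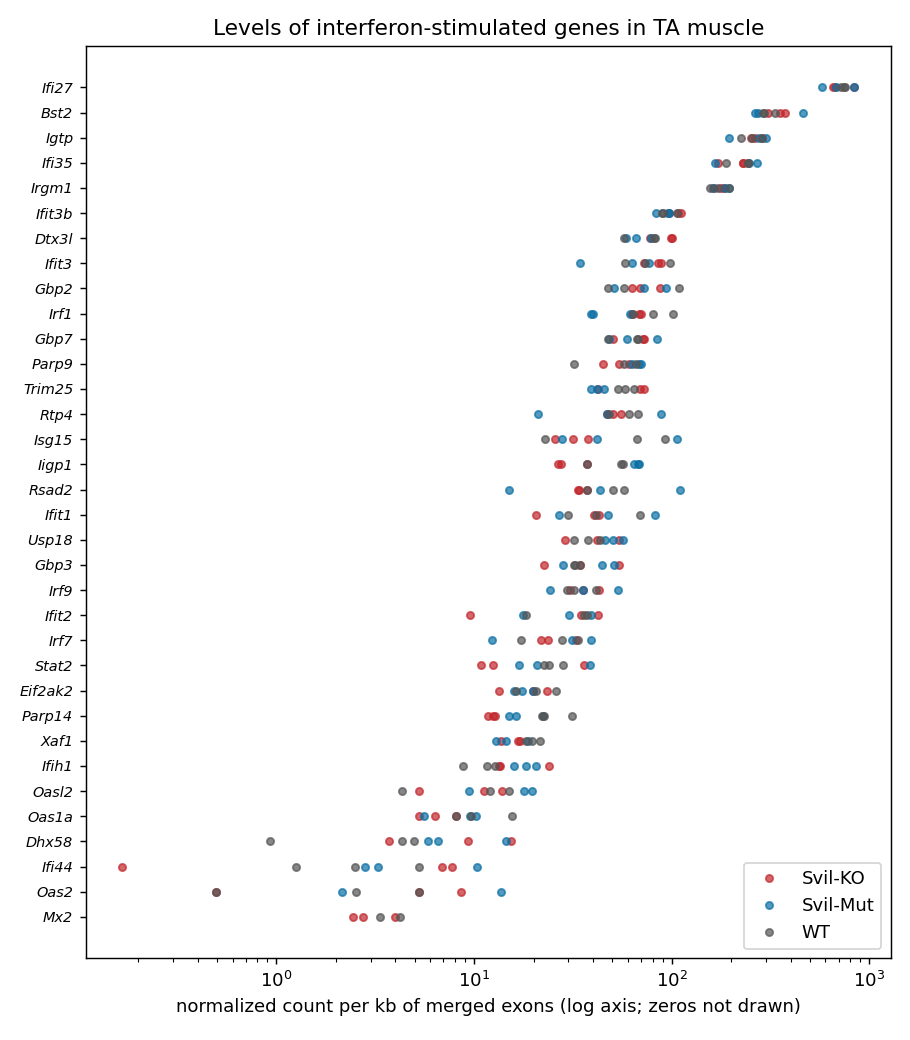
Level of each member in each library, as normalized count per kilobase of merged exons on a log axis, for Svil-KO, Svil-Mut and WT (1 point per library; values of 0, Mx1 among them, are not drawn). Ifi27 and Bst2 lie at the top, Mx2 and Oas2 at the bottom, and the 3 genotypes are mixed for most genes.

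Some members share sequence or position with other genes. In GENCODE M21 (GRCm38), where all 35 were found by symbol, 3 members share over 40% of their 50-base stretches with another gene: Oas1a with Oas1g (57.6%), Ifit3 with Ifit3b (51.2%) and Ifit3b with Ifit3 (44.5%). How reads of these near-copies were divided is not given in the sources used here, so their separate values are uncertain. The highest share of any other member with a single gene was 11.8% (Igtp with Irgm2). Exons of 9 members overlap a gene on the opposite strand, and the library kit does not mark strand. The longest of these overlaps, 458 bases, joins Parp9 and Dtx3l, which are transcribed away from each other. The members lie on 15 chromosomes, and 1 of them, Iigp1, is on the chromosome of Svil (18).

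No member of the set passed the test in Svil-KO muscle. Of the 35 genes, 34 passed the filter on low values (Mx1 did not), and 0 of these 34 reached an adjusted p under 0.05 in limma's test, where 0 of all 15279 genes tested did (0%). EdgeR and DESeq2 also called 0 members, and over all genes edgeR called 0 (0%) and DESeq2 4 (0.0262%). At an unadjusted limma p under 0.05 there were 2 members, Parp14 and Iigp1, that is 5.88% of those tested, against 4.11% of all genes. The log2 fold changes of the 34 members had a median of 0.02, with 19 above 0 and 15 below, and those of all genes a median of 0.0031 with 50.6% above 0. Adjusted p-values of the members ran from 0.997 to 1.

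Parp14 was the member furthest from WT by p in Svil-KO. This ADP-ribosyltransferase with macrodomains (chromosome 16, 35832874 to 35871544, minus strand, protein coding) had 119, 110 and 116 normalized counts in Svil-KO, 209, 151 and 140 in Svil-Mut and 292, 210 and 206 in WT. All Svil-KO libraries lay below all Svil-Mut libraries and all WT libraries, and the Svil-KO values differed little from each other. The log2 fold change against WT was -1.01 ± 0.23 SE in Svil-KO (limma unadjusted p = 0.0012, adjusted p = 0.997, 0.134 to 1 over the alternatives; exact 2-sided permutation p = 0.1, the smallest that 3 against 3 libraries allow). In Svil-Mut it was -0.50 ± 0.23 SE against the same WT libraries (limma unadjusted p = 0.0529, adjusted p = 0.503). Parp9 and Dtx3l, which form a ubiquitin ligase complex with an ADP-ribosyltransferase subunit and lie near Parp14 on chromosome 16, had other values. Parp9 had 265, 219 and 295 normalized counts in Svil-KO, 305, 334 and 339 in Svil-Mut and 281, 323 and 156 in WT, and the WT values spanned those of Svil-KO. Dtx3l had 577, 442 and 568 in Svil-KO, 376, 335 and 448 in Svil-Mut and 329, 465 and 469 in WT. For Dtx3l the log2 fold change in Svil-KO against WT was 0.34 ± 0.19 SE (limma adjusted p = 0.997).

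Iigp1, an immunity-related GTPase that acts on vacuoles of intracellular pathogens (chromosome 18, 60376027 to 60392634, plus strand, protein coding), was the other member with an unadjusted p under 0.05 in Svil-KO. It had 216, 160 and 154 normalized counts in Svil-KO, 375, 392 and 396 in Svil-Mut and 329, 324 and 216 in WT. The highest Svil-KO library and the lowest WT library were both at 216 after rounding, without crossing, and the Svil-Mut libraries lay above all others. Against WT the log2 fold change was -0.70 ± 0.21 SE in Svil-KO (limma unadjusted p = 0.00704, adjusted p = 0.997) and 0.45 ± 0.21 SE in Svil-Mut (limma unadjusted p = 0.0596, adjusted p = 0.52).

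The libraries of Svil-KO and WT did not overlap for 6 of the 34 members tested (17.6%), against 10.7% of all genes. Of these, 5 lay lower in Svil-KO (Parp14, Iigp1, Oas1a, Rsad2 and Xaf1; 5.45% of all genes did) and 1 lay higher (Ifih1; 5.2% of all genes did). Rsad2, which encodes the antiviral enzyme viperin, had 147, 161 and 146 normalized counts in Svil-KO and 162, 218 and 249 in WT, so the gap to the lowest WT library was small. Xaf1, a partner of the apoptosis inhibitor Xiap, had 78.1, 64.2 and 80.5 in Svil-KO and 91.9, 86 and 101 in WT. The remaining members among the 10 smallest p-values were Dhx58, Oas1a, Stat2, Isg15 and Irf1, with log2 fold changes in Svil-KO against WT of 1.44 ± 0.74, -0.69 ± 0.53, -0.55 ± 0.45, -0.72 ± 0.62 and -0.26 ± 0.23 (SE), and the log2 fold change of Xaf1 was -0.32 ± 0.27. None of them had an adjusted p under 0.997 by limma. Single libraries moved several log2 fold changes in Svil-KO against WT by over 1.5 times. Without WT replicate 3, that of Dhx58 was 0.77, that of Isg15 -0.31 and that of Irf1 -0.10. Without WT replicate 4, Isg15 was at -1.29, Irf1 at -0.43 and Oas1a at -0.42, and without WT replicate 1 Dtx3l was at 0.17. Stat2 was at -0.33, -0.23 and -1.09 without Svil-KO replicates 1, 3 and 4, and Ifih1 at 0.30 without Svil-KO replicate 1.

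In Svil-Mut muscle no member passed either. By limma 0 of the 34 members reached the threshold, against 6 of all 15279 genes (0.0393%; 0.0262% higher and 0.0131% lower), and edgeR and DESeq2 also called 0 members, against 6 (0.0393%) and 172 (1.13%) of all genes. Unadjusted, 4 members (11.8%) had a limma p under 0.05, against 10% of all genes, and these were Irf1, Ifih1, Mx2 and Trim25. The median log2 fold change was -0.04, with 15 members above 0 and 19 below, and the median of all genes was -0.0046. The sign of the members' median turned with the test, since edgeR and DESeq2 each gave 0.03, with 20 above 0 and 14 below. Libraries did not overlap for 6 members (17.6%), against 13.9% of all genes. Dhx58, Ifih1, Iigp1 and Usp18 lay higher in Svil-Mut (4 members; 7.13% of all genes did), and Irf1 and Trim25 lay lower (2 members; 6.81% of all genes did).

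A transcription factor of the set, Irf1, gave the smallest p in Svil-Mut. Irf1, an early factor downstream of type II interferon (chromosome 11, 53770014 to 53778374, plus strand), had 273, 250 and 277 normalized counts in Svil-KO, 156, 160 and 244 in Svil-Mut and 321, 404 and 253 in WT. Its log2 fold change in Svil-Mut against WT was -0.80 ± 0.23 SE, with an adjusted p = 0.325 by limma and adjusted p-values of 0.0985 to 0.557 over the alternatives run. Trim25, a ubiquitin ligase of the RIG-I pathway, had 398, 416 and 244 in Svil-KO, 225, 241 and 260 in Svil-Mut and 372, 332 and 306 in WT. The 3 Svil-Mut libraries were close together below WT, while Svil-KO replicate 4 lay among the Svil-Mut values. The log2 fold change of Trim25 in Svil-Mut against WT was -0.47 ± 0.21 SE (limma adjusted p = 0.496). The other factors overlapped between genotypes. Stat2 had 73.7, 64.2 and 214 in Svil-KO, 123, 100 and 230 in Svil-Mut and 142, 134 and 168 in WT. Irf9 averaged 196 ± 32.6 in Svil-KO, 203 ± 79 in Svil-Mut and 185 ± 34 in WT (SD, n = 3). Irf7, the factor that amplifies type I interferon production, averaged 98.9 ± 22.4 in Svil-KO, 104 ± 51.4 in Svil-Mut and 99.2 ± 31.5 in WT (SD, n = 3).

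The members of the set that encode helicase sensors of double-stranded RNA, Ifih1 and Dhx58, had positive fold changes in both genotypes without passing the test, while Rigi, a related sensor outside the set, had a negative one in Svil-KO. Ifih1, which encodes the helicase MDA5, had 196, 109 and 111 normalized counts in Svil-KO, 130, 167 and 149 in Svil-Mut and 95.2, 71.8 and 104 in WT. Every library of both altered genotypes was above every WT library. The log2 fold change of Ifih1 was 0.57 ± 0.29 SE in Svil-KO (limma adjusted p = 0.997) and 0.72 ± 0.29 SE in Svil-Mut (limma adjusted p = 0.44), each against the same 3 WT libraries. Dhx58, the related helicase without a signalling domain, had 12.1, 30.6 and 50.2 in Svil-KO, 21.4, 19.1 and 47.3 in Svil-Mut and 14.2, 3.04 and 16.3 in WT. Its counts were low, above all in WT replicate 3, and in Svil-Mut against WT the log2 fold change of 1.45 ± 0.74 SE ran from 0.78 (without WT replicate 3) to 1.83 over the alternatives. Eif2ak2, the kinase PKR that phosphorylates eIF2-alpha, averaged 96.8 ± 26.2 in Svil-KO, 90.6 ± 9.74 in Svil-Mut and 107 ± 24.8 in WT (SD, n = 3). Usp18, a protease that removes Isg15 and dampens type I receptor signalling, had 80.3, 151 and 117 in Svil-KO, 129, 141 and 158 in Svil-Mut and 89.7, 121 and 105 in WT. Its log2 fold change in Svil-Mut against WT was 0.44 ± 0.28 SE, that of Parp9 0.43 ± 0.26 SE and that of Xaf1 -0.38 ± 0.27 SE (limma adjusted p = 0.639, 0.626 and 0.694). Without WT replicate 4 the log2 fold change in Svil-Mut against WT was 0.11 for Parp9 and 0.25 for Iigp1.

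Mx2 had 9.9, 14.3 and 8.77 normalized counts in Svil-KO, 0 in all 3 Svil-Mut libraries and 12, 0 and 15.3 in WT. Against the level that 3 reads per library would give in Svil-Mut, the observed Svil-KO mean was 3.76-fold higher. The observed WT mean, in which 1 of 3 libraries was itself at 0, was 3.12-fold higher than that level. Both values take the observed mean as exact and leave out the spread between mice. The limma log2 fold change, which depends on the pseudocount, was 3.56 ± 1.15 SE for Svil-KO against Svil-Mut (95% interval 1.02 to 6.1). For Svil-Mut against WT it was -2.58 ± 1.15 SE (95% interval -5.12 to -0.0368). The test did not pass in either comparison (limma adjusted p = 0.35 for Svil-KO against Svil-Mut and 0.489 for Svil-Mut against WT).

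**Figure D2:**
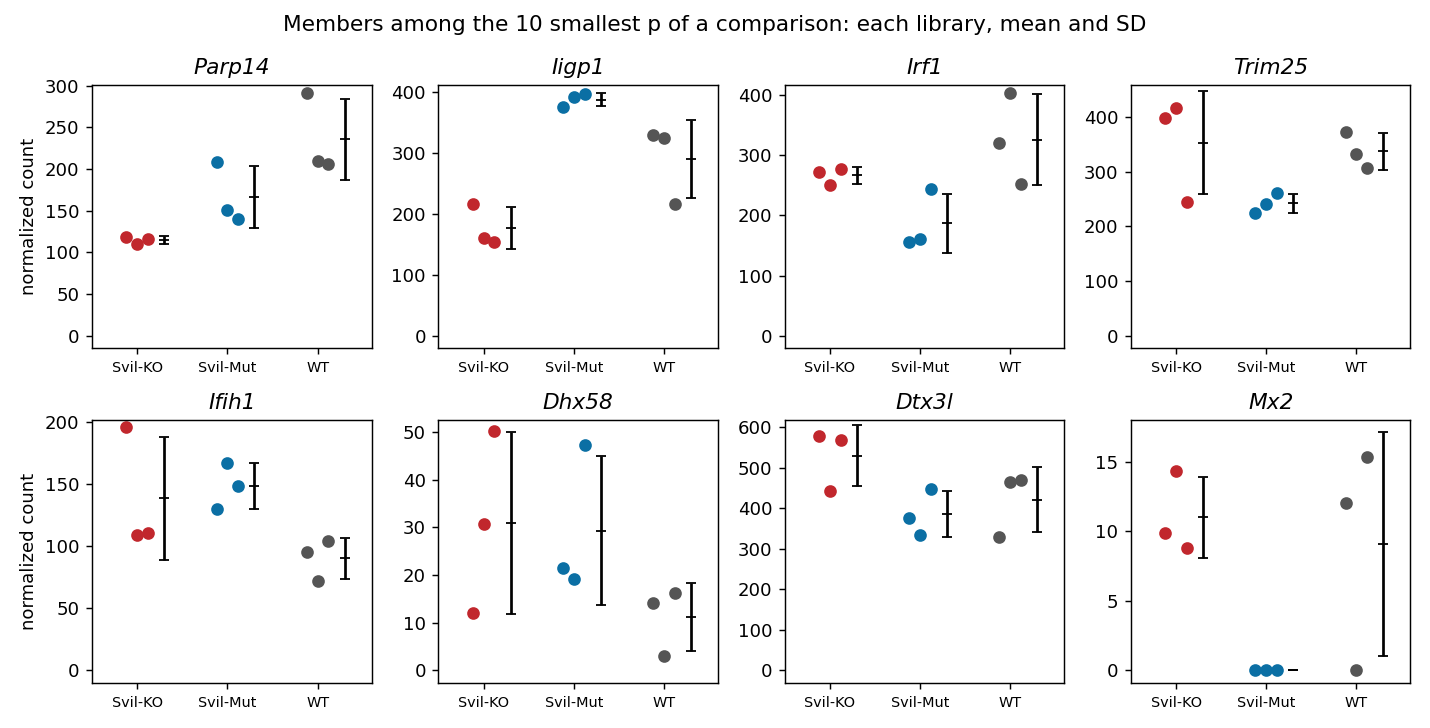
Normalized counts in each library (points) with the mean and SD (n = 3) for 8 members, by genotype (Svil-KO, Svil-Mut, WT), each panel with its own axis from 0. Parp14 is lowest in Svil-KO and Iigp1 is lower in Svil-KO and higher in Svil-Mut than in WT, while Dhx58 and Mx2 have few counts and wide spread.

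With Svil-KO set directly against Svil-Mut, no member passed the test by limma (0 of 34, against 7 of all 15279 genes, that is 0.0458%, with 0.0131% higher and 0.0327% lower in Svil-KO). EdgeR also called 0 members, against 7 of all genes (0.0458%), and DESeq2 called 1, Iigp1, against 212 of the 13784 genes to which it gave an adjusted p (1.54%). Unadjusted limma p-values under 0.05 were reached by 5 members (14.7%; Iigp1, Mx2, Dtx3l, Trim25 and Irf1), against 10.2% of all genes. The libraries did not overlap for 5 members (14.7%), against 15.2% of all genes. Irf1 and Mx2 lay higher in Svil-KO (2 members; 7.55% of all genes did), and Iigp1, Parp14 and Parp9 lay lower (3 members; 7.66% of all genes did). The median log2 difference of the 34 members was -0.00029, with 17 above 0 and 17 below. For Iigp1 the log2 difference was -1.15 ± 0.21 SE, a level in Svil-KO of 45.1% of that in Svil-Mut (limma unadjusted p = 0.000228, adjusted p = 0.142; DESeq2 adjusted p = 0.000489; exact 2-sided permutation p = 0.1). Adjusted p-values for this value ran from 0.000489 to 0.419 over the alternatives, and the log2 difference from -1.3 to -1.06. Dtx3l, Trim25 and Irf1 had log2 differences of 0.45 ± 0.19, 0.51 ± 0.21 and 0.54 ± 0.23 (SE), and Parp14 one of -0.51 ± 0.23 (limma adjusted p = 0.465 to 0.493). The rest of the 10 smallest p-values belonged to Ifit3 (0.57 ± 0.33), Parp9 (-0.34 ± 0.26), Oasl2 (-0.66 ± 0.53) and Usp18 (-0.34 ± 0.28), on the same log2 scale with SE. Here too single libraries moved values by over 1.5 times: Usp18 was at -0.10 and -0.55 without Svil-KO replicates 1 and 3, Parp9 at -0.22 and Oasl2 at -0.25 without Svil-KO replicate 3, Parp14 at -0.33 without Svil-Mut replicate 1 and Ifit3 at 0.23 without Svil-Mut replicate 2.

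**Figure D3:**
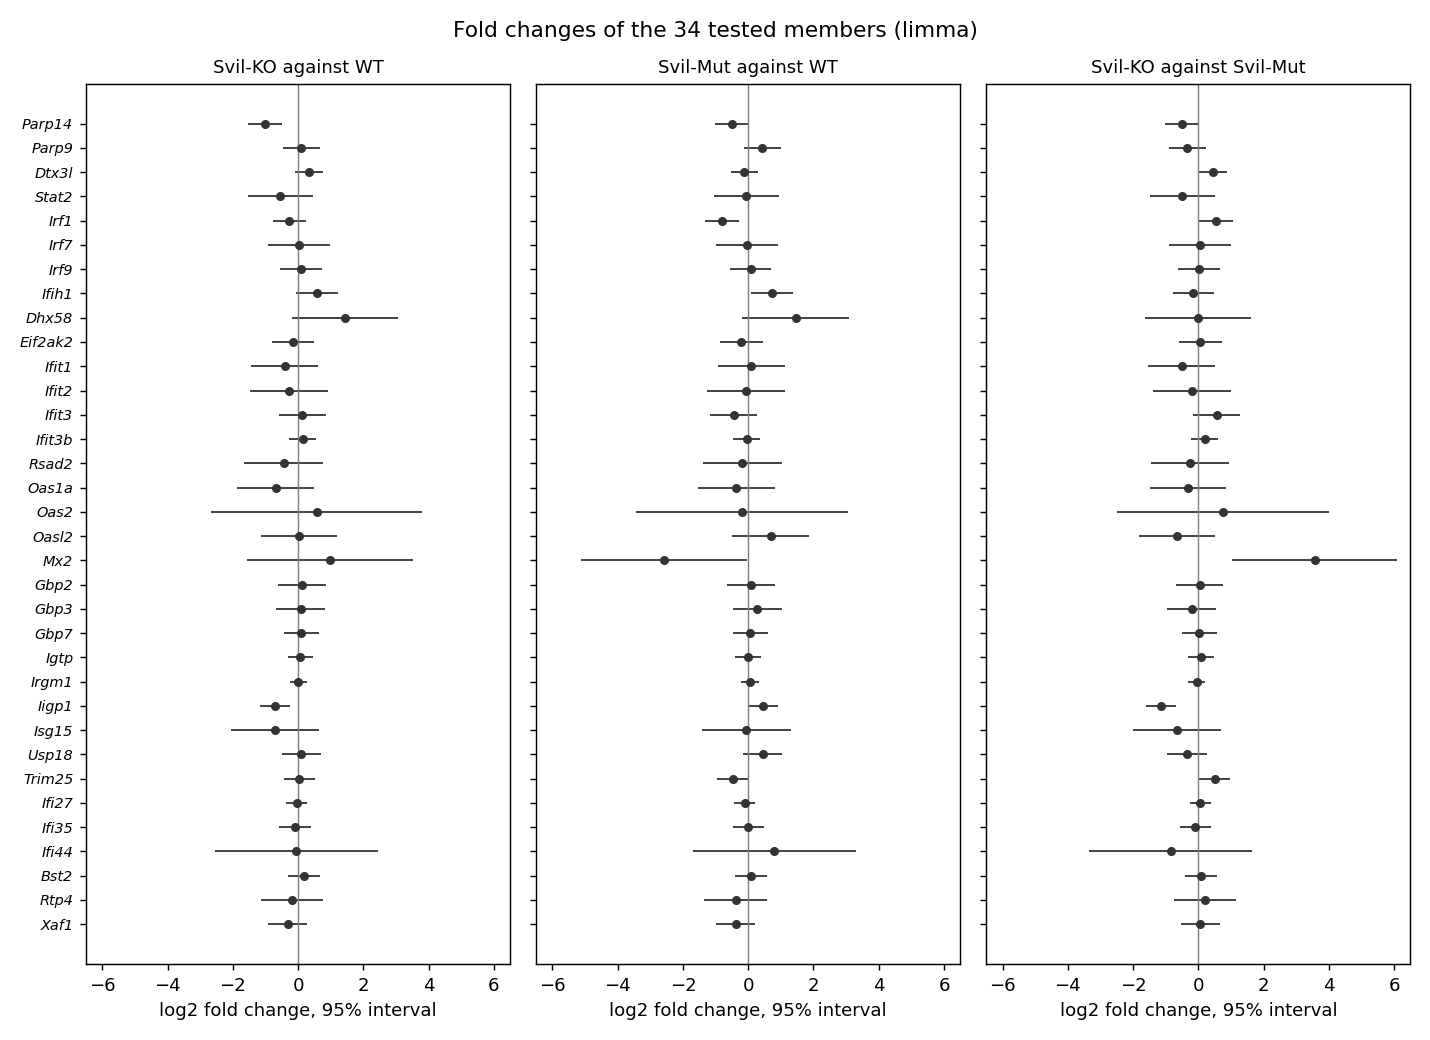
Log2 fold changes of the 34 tested members with 95% intervals from limma, for each altered genotype against WT and for Svil-KO against Svil-Mut (positive means higher in the genotype named first). Most intervals include 0 and no member passed after adjustment, and the intervals of Oas2, Mx2, Ifi44 and Dhx58 are the widest.

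The intervals show what size of difference these libraries could have held. In each comparison the 95% interval of a log2 fold change reached 0.27 to 3.25 to either side, with a median of 0.65. It lay wholly within 1 of 0, that is within 2-fold, for 19 of the 34 members in Svil-KO against WT, for 16 in Svil-Mut against WT and for 17 in Svil-KO against Svil-Mut. The narrowest intervals belonged to abundant members. Irgm1, a regulator of immunity-related GTPases, averaged 1013 ± 60.6 normalized counts in Svil-KO, 1050 ± 97.1 in Svil-Mut and 1013 ± 117 in WT (SD, n = 3). Ifi27 averaged 1059 ± 148 in Svil-KO, 1022 ± 193 in Svil-Mut and 1088 ± 24.3 in WT. Igtp, another GTPase of this family, averaged 540 ± 33.2 in Svil-KO, 520 ± 112 in Svil-Mut and 517 ± 63.2 in WT. The guanylate-binding proteins, which coat pathogen vacuoles, overlapped between genotypes: Gbp7 averaged 363 ± 70.5 in Svil-KO, 359 ± 104 in Svil-Mut and 340 ± 63.5 in WT, Gbp2 184 ± 31.6, 183 ± 53.4 and 179 ± 82.4, and Gbp3 121 ± 51.6, 135 ± 38.4 and 108 ± 3.77, in the same order of genotypes.

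Several antiviral effectors were spread widely among mice of the same genotype, in Svil-Mut and in the other genotypes. Rsad2 had 146 to 161 normalized counts in Svil-KO, 188, 64.9 and 479 in Svil-Mut, a 7.37-fold range, and 162 to 249 in WT. Isg15, the ubiquitin-like modifier, had 28.6, 19.4 and 23.9 in Svil-KO, 31.6, 21 and 80.4 in Svil-Mut and 50.3, 69.8 and 17.3 in WT. Ifit1, which binds foreign RNA ends, had 114, 108 and 55 in Svil-KO, 126, 71.6 and 220 in Svil-Mut and 79.9, 184 and 110 in WT. Rtp4 had 100 to 118 in Svil-KO, 99.8, 44.9 and 188 in Svil-Mut and 144, 129 and 103 in WT. In each of these 4 genes Svil-Mut replicate 4 was the highest and Svil-Mut replicate 2 the lowest of its genotype, and the WT libraries overlapped the Svil-Mut range. Oas2, which makes the 2-5A activator of RNase L, had 2.2, 23.4 and 38.3 in Svil-KO, 0, 9.55 and 60.6 in Svil-Mut and 2.19, 23.3 and 11.2 in WT, and Ifi44 had 47.3, 1.02 and 42.3, then 17.3, 20 and 63.4, then 7.66, 32.4 and 15.3 in the same order of genotypes. The highest library exceeded the lowest by more than 2-fold for 8 of 34 members in Svil-KO (21.3% of all genes), for 13 in Svil-Mut (26% of all genes) and for 10 in WT (23.3% of all genes).

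Over the whole set, Svil-Mut replicate 4 was the highest of the 9 libraries for 14 of the 34 members tested (16% of all genes) and the highest of its genotype for 23 (35.7% of all genes). Its median difference from the WT mean over the members was 0.49 on the log2 scale, with 23 of 34 above 0. The other 2 Svil-Mut libraries were at -0.03 and -0.27, the Svil-KO libraries at -0.02, -0.09 and 0.06 and the WT libraries at 0.01, 0.17 and -0.07. Without Svil-Mut replicate 4, the median log2 fold change of the members in Svil-Mut against WT was -0.20, and without Svil-Mut replicate 2 it was 0.17. It was also above 0 without Svil-Mut replicate 1 (0.05) or WT replicate 3 (0.07). Marker lists of macrophages, red blood cells and neutrophils were also high in Svil-Mut replicate 4, while several other lists were not. There the median difference from the WT mean was 0.03 for endothelial, 0.06 for muscle fibre, -0.14 for fibro-adipogenic and -0.24 for satellite cell markers. It was 0.81 for T and NK cells (2 genes tested) and 0.945 for B cells (1 gene tested). A WT library was higher for each, with WT replicate 4 at 1.31 for T and NK cells and WT replicate 1 at 1.86 for B cells. The summed level of 12 macrophage markers was 1665 to 3571 in Svil-KO, 1668, 1802 and 4215 in the Svil-Mut libraries and 1625 to 2402 in WT. Of the 4215, Lyz2 alone gave 2359. That of 6 red blood cell genes was 2635 to 6208 in Svil-KO, 6559, 14292 and 49363 in Svil-Mut and 4431 to 8147 in WT. Of the 6 neutrophil markers, 4 were detected in Svil-Mut replicate 4, with a summed level of 421, against 28.5 and 64 in the other Svil-Mut libraries, 23.1 to 50.2 in Svil-KO and 18.3 to 73.3 in WT, while Ly6g was at 0 in all 9 libraries. The part of these markers in the values of the members was not tested. Svil-KO replicate 3, with 3571 for the 12 macrophage markers, had a member median of -0.09. Svil-Mut replicate 2, with 14292 for the 6 red blood cell genes, had one of -0.27. The plasmacytoid dendritic cell markers, known from the main producers of type I interferon, were led by Tcf4 and by Bst2, itself a member. Siglech, a defining marker, had 0, 0 and 17.5 normalized counts in Svil-KO. It had 0, 9.55 and 45.4 in Svil-Mut and 0, 0 and 4.08 in WT. The other markers of this list did not move together in Svil-Mut replicate 4. There Bst2 was at 415, its highest of the 9 libraries, and Tcf4 at 2008, its lowest, with Ccr9 at 0 and Klk1 at 3.78.

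**Figure D4:**
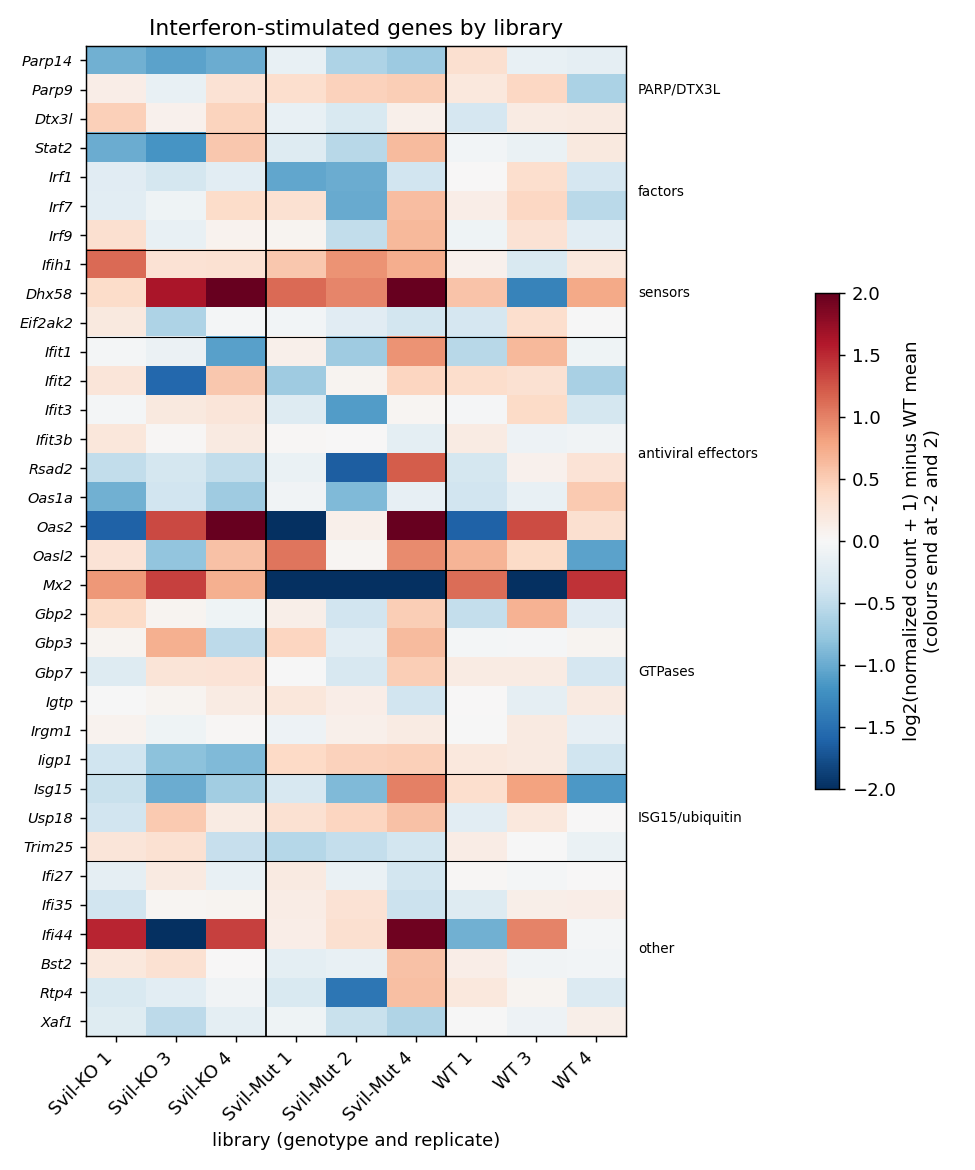
Log2(normalized count + 1) of the 34 tested members minus the WT mean of each gene, in the Svil-KO, Svil-Mut and WT libraries (columns), with rows grouped by role. Svil-Mut replicate 4 has the highest median (0.49) and Svil-Mut replicate 2 the lowest (-0.27), while Parp14 and Iigp1 are blue across all 3 Svil-KO libraries.

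The pathway above the set was examined in lists drawn up for this purpose. Transcripts of interferons themselves were at 0 in all 9 libraries for Ifnb1, Ifng, Ifna1, Ifna2, Ifna4, Ifnl2, Ifnl3, Ifnk and Ifne, which allows up to 3 reads of each per library. Receptors of type I and type II interferon were expressed. Ifnar1 averaged 405 ± 52.9 normalized counts in Svil-KO, 387 ± 119 in Svil-Mut and 374 ± 113 in WT, and Ifngr2 5012 ± 423, 4792 ± 248 and 4554 ± 423 in the same order (SD, n = 3). Of the 19 tested genes among the interferon ligands, receptors and Jak-Stat factors, none was called in any comparison. An unadjusted limma p under 0.05 was found for 1 gene in Svil-KO against WT (4.11% of all genes). It was found for 4 in Svil-Mut against WT (10% of all genes) and for 4 in Svil-KO against Svil-Mut (10.2% of all genes). The smallest p-values of this list belonged to Jak2 in Svil-KO against WT (log2 fold change 0.31 ± 0.10 SE, limma adjusted p = 0.997) and to Socs3, an inhibitor of Jak kinases, in both other comparisons. Socs3 had 53.9, 46.9 and 85.3 normalized counts in Svil-KO, 203, 134 and 342 in Svil-Mut and 149, 61.7 and 86.6 in WT (limma adjusted p = 0.402 for Svil-Mut against WT and 0.214 for Svil-KO against Svil-Mut).

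Other interferon-induced genes were also not called, but their medians in Svil-KO were lower than those of the set. Of 69 further interferon-stimulated genes, 55 were tested and 0 were called in any of the 3 comparisons. An unadjusted limma p under 0.05 was found for 2 in Svil-KO against WT (4.11% of all genes). It was found for 2 in Svil-Mut against WT (10% of all genes) and for 6 between the altered genotypes (10.2% of all genes). Their median log2 fold change was -0.14 in Svil-KO against WT, with 21 above 0 and 34 below. In Svil-Mut against WT it was 0.04 (32 above and 23 below), and in Svil-KO against Svil-Mut -0.15 (21 above and 34 below). The medians of all genes were 0.0031, -0.0046 and 0.0089, with 50.6%, 49.3% and 51.4% above 0. By library, the median difference of the 55 genes from the WT mean was -0.0792, -0.255 and -0.0707 in Svil-KO. It was 0.031, -0.262 and 0.339 in Svil-Mut and 0.00462, 0.0859 and -0.0603 in WT. Isg20, an exonuclease for RNA, had 8.8, 7.13 and 20.7 normalized counts in Svil-KO, 48.9, 73.5 and 153 in Svil-Mut and 45.9, 33.4 and 81.5 in WT. Its Svil-KO libraries lay below all others (limma unadjusted p = 0.00375, adjusted p = 0.997 against WT, and unadjusted p = 0.00049, adjusted p = 0.152 against Svil-Mut). Gbp10, a guanylate-binding protein, had 62.1, 117 and 16.1 in Svil-Mut and 193, 294 and 191 in WT (log2 fold change -2.14 ± 0.62 SE, limma adjusted p = 0.326). The RNA sensor gene Rigi had 82.5, 82.5 and 136 in Svil-KO and 220, 115 and 206 in WT (log2 fold change -0.82 ± 0.32 SE, limma adjusted p = 0.997), and no gene of the 18 tested in the nucleic acid sensing list was called. Of these 18, 7 had a fold change above 0 and 11 below in Svil-KO against WT, and 8 and 10 in Svil-Mut against WT. An unadjusted limma p under 0.05 was found for 2 in Svil-KO against WT, 1 in Svil-Mut against WT and 0 between the altered genotypes (4.11%, 10% and 10.2% of all genes).

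Antigen presentation genes, which type II interferon induces, were not called either. The 18 genes of class I presentation had a median log2 fold change of -0.07 in Svil-KO against WT, with 5 above 0 and 13 below. In Svil-Mut against WT it was 0.12, with 13 above 0 and 5 below. In Svil-KO against Svil-Mut it was -0.30, with 5 above 0 and 13 below. There 3 of the 18 had an unadjusted limma p under 0.05 (10.2% of all genes did), and 0 in the comparisons with WT. Among them H2-D1, a class I heavy chain, had 4286, 4313 and 4080 normalized counts in Svil-KO, 5539, 4518 and 7424 in Svil-Mut and 4606, 4888 and 4836 in WT. B2m, the class I light chain, had 3458, 3448 and 2991 in Svil-KO, 3948, 3803 and 5368 in Svil-Mut and 3686, 4111 and 4031 in WT. Svil-Mut replicate 4 was the highest library for both. The limma adjusted p for Svil-KO against Svil-Mut was 0.364 for H2-D1 and 0.353 for B2m. In the 8 genes of class II presentation, the median log2 fold change against WT was -0.07 in Svil-KO, with 3 above 0 and 5 below. It was 0.39 in Svil-Mut against WT, with 8 above 0 and 0 below, and -0.33 in Svil-KO against Svil-Mut. By library, Svil-Mut replicates 1 and 2 had class II medians of -0.125 and -0.0253 from the WT mean, that is below it. Svil-Mut replicate 4 stood at a median of 1.18 above the WT mean, with Svil-KO replicate 3 at 0.74. Both libraries also had the highest macrophage marker levels, and the part of these cells was not tested.

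**Figure D5:**
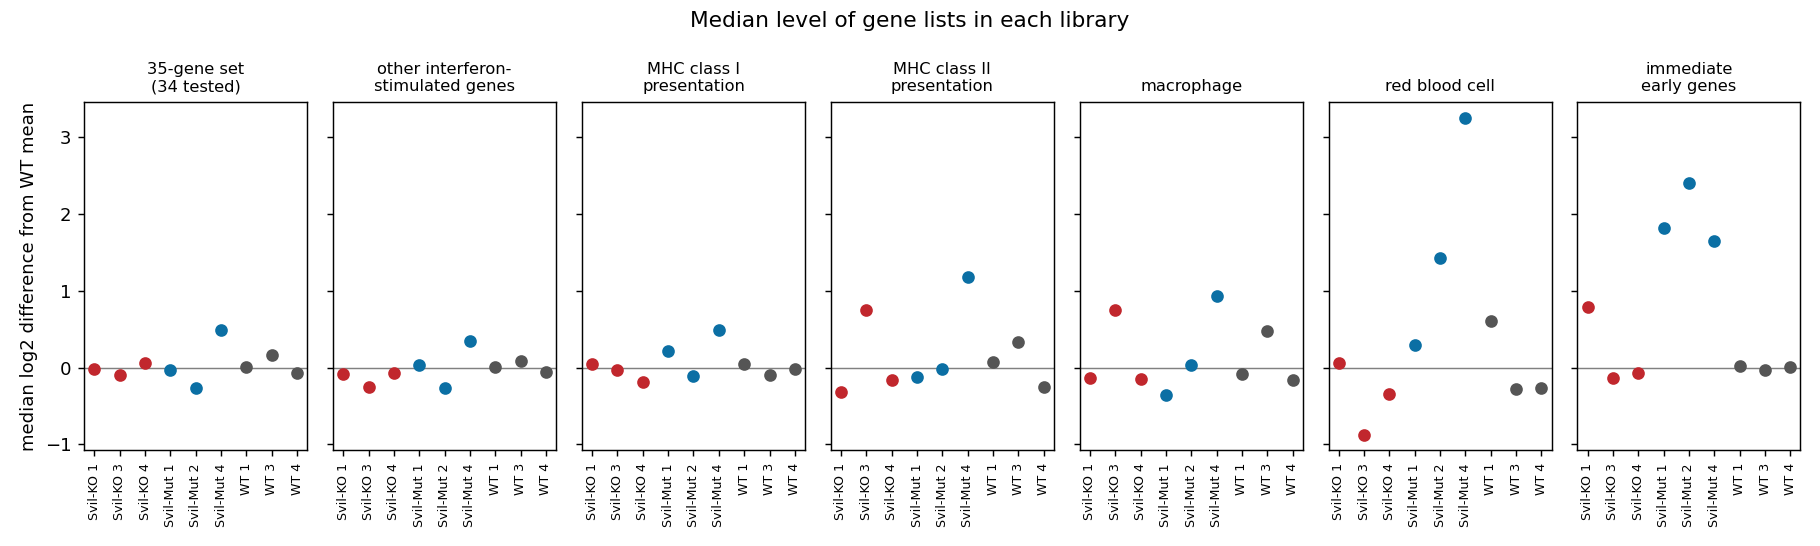
Median log2 difference from the WT mean in each library for the interferon-stimulated set, further interferon-stimulated genes, class I and class II presentation, macrophage markers, red blood cell genes and immediate early genes (1 point per library; Svil-KO, Svil-Mut, WT from left to right). Svil-Mut replicate 4 is the highest point for the set (0.49), for both presentation lists (0.49 and 1.18) and for red blood cell genes (3.25), whereas the immediate early genes are high in all 3 Svil-Mut libraries.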

How the data were processed

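RNA of 9 left TA muscles was, per the labels' protocols, copied from oligo(dT) primers with a low-input SMARTer v4 kit, and libraries were made by tagmentation (Nextera XT) without marking strand. All libraries carry batch label 1. Per the submitters' processing notes, HISAT2, featureCounts and DESeq2 were used on mm10. Versions, settings and the annotation: not given in the sources used here. In the deposited table each gene has a signal, its reads over the size factor of the library. Whole reads were recovered, since 100% of the nonzero values were multiples of 1 step per library (tolerance 0.001). Size factors do not correct for transcript length and assume that most genes do not differ.

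Because the values are normalized, genes were tested with limma on log2(value + 1), fitted to the 9 libraries together by genotype alone with a trend of variance on level, on genes with at least 10 in at least 3 libraries. P-values were adjusted over the 15279 genes tested (Benjamini-Hochberg, called under 0.05). Fold changes on this scale understate those of low genes. Both comparisons against WT share the WT libraries. EdgeR's quasi-likelihood test and DESeq2 were run on the recovered reads, and the limma step was tested on simulated data. The members, the gene lists and the tests were chosen with earlier results of these data known. In each comparison the 10 members with the smallest p are given with fold changes, and up to 3 genes of a pathway list are named by p, except 1 gene that is not reported here; receptors and marker genes beyond these, and the genes in the closing section, were named for their role or after their values were seen. Promoter printing left out chromosome 18. Sequences came from RefSeq (GRCm38.p6) and positions from GENCODE M21 (GRCm38), which need not be the annotation used for counting. Tools were matplotlib 3.10.9, Python 3.11.15, DESeq2 1.42.0, edgeR 4.0.16, limma 3.58.1 and R 4.3.3.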

Additional observations from a re-analysis of the deposited data

How the results depend on the processing

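The alternatives were pseudocounts of 0.5 and 10, no filter, a mean of at least 50, equal library totals, no variance trend, fitting 2 genotypes alone, edgeR, DESeq2, a replicate block and leaving out each library in turn. Under all of them 0 members were called in Svil-KO against WT and in Svil-Mut against WT. In Svil-KO against Svil-Mut DESeq2 called 1 member (Iigp1, adjusted p = 0.000489), where it called 1.54% of all genes, and the others called 0. Of 556 values for the members with the smallest p, 555 kept their direction and stayed on their side of the threshold, 0 reversed, and Iigp1 under DESeq2 was the exception. The cause was not tested. Many of these directions were fixed in advance. No filter, a mean of at least 50, no variance trend, fitting 2 genotypes alone and leaving out a library of the third genotype cannot change a limma fold change. The tally is therefore no measure of how stable the directions are. For Mx2 in Svil-KO against Svil-Mut DESeq2 gave no adjusted p, so only its direction counts there. The members' median log2 fold change in Svil-Mut against WT was 0.17 with the replicate block, 0.03 with edgeR and with DESeq2, and -0.20 to 0.17 when single libraries were left out. In Svil-KO against WT it was -0.07 to 0.05, and in Svil-KO against Svil-Mut -0.17 to -0.00029, when single libraries were left out. Replicate numbers did not pair the libraries: same-numbered libraries had correlations of deviations from -0.0556 to 0.0444, others from -0.0387 to 0.0613.

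The count over all genes depended more on the setting. In Svil-KO against WT DESeq2 called 4 genes. In Svil-Mut against WT the count was 19 with a pseudocount of 10, 16 with a mean of at least 50, 14 with only the 2 genotypes, 172 with DESeq2 and 4 to 18 when single libraries were left out (17 and 12 without replicates 1 and 3 of Svil-KO, 18 and 13 without replicates 1 and 4 of Svil-Mut). In Svil-KO against Svil-Mut it was 212 with DESeq2 and 4 to 13 when single libraries were left out (13 and 4 without replicates 1 and 4 of Svil-KO). The causes were not tested. At these depths, the 5 tested members under 30 normalized counts had intervals that reached over 1 log2 unit to either side.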

Other observations

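A pair of low-count genes of the interferon pathway was detected in all Svil-KO libraries and at 0 in all WT libraries. Ifnlr1, a chain of the type III interferon receptor, had 8.8, 6.11 and 7.18 normalized counts in Svil-KO and 0 in every Svil-Mut and WT library, where 0 allows up to 3 reads each. It did not pass the filter and was not tested. Oas1c, an Oas1 paralog, had 11, 11.2 and 7.97 in Svil-KO, 0, 1.91 and 16.1 in Svil-Mut and 0 in all WT libraries (limma unadjusted p = 0.0127, adjusted p = 0.997 for Svil-KO against WT). Both were picked after their values were seen, and how many of all genes have this pattern was not counted. Of the genes tested, 5.2% had all Svil-KO libraries above all WT libraries. Socs1, an inhibitor of Jak kinases that interferon induces, spread widely within Svil-Mut. It had 28.6, 35.7 and 23.9 normalized counts in Svil-KO, 81.5, 194 and 10.4 in Svil-Mut and 17.5, 27.3 and 22.4 in WT.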
